A study of Homo sapiens with 50 samples.

Results

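The 10 genes described here control the mitochondrial and the receptor-driven route into apoptosis: BBC3, PMAIP1, BCL2L11, BIK, BAX, BCL2L1, MCL1 and BCL2L15 of the BCL2 family, and the death receptor genes TNFRSF10A and TNFRSF10B. They were taken by name from the 18227 genes that an expression array measured in A549, a cell line grown from a human lung adenocarcinoma. Each gene was represented by its probe set with the highest mean signal over the 50 arrays, out of 41 probe sets that carry the symbol of a member. The members share a function, the list was drawn up with earlier results of these data known, and all 10 were measured.

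The series asks how a small-molecule activator of the pyruvate kinase PKM, called compound 16, acts on these cells when serine is present or lacking. All cells grew first in RPMI, and 3 arrays hold RNA of cells taken before the change of medium. The other cells were moved to BME medium with non-essential amino acids, without or with serine, and 24 h later received 1 uM compound 16 or the solvent DMSO. RNA was taken at 0, 1.5, 6 and 24 h after addition, which gives 16 further groups: compound 16 without serine, DMSO without serine, compound 16 with serine and DMSO with serine, each at 4 times. Every group has 3 arrays except DMSO with serine at 1.5 h, which has 2. The labels call the samples triplicates and do not say whether they came from separate cultures, so each p-value rests on the scatter among arrays of a group, and that scatter could be technical.

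BCL2 family proteins share short BCL2 homology segments and decide together whether the outer mitochondrial membrane is opened. BH3-only members such as PUMA (BBC3), NOXA (PMAIP1), BIM (BCL2L11) and BIK bind and neutralise protective members such as BCL-XL (BCL2L1) or MCL1. NOXA mainly opposes MCL1. Pore formers such as BAX then release cytochrome c. TNFRSF10A and TNFRSF10B encode DR4 and DR5, the receptors at the cell surface that bind the ligand TRAIL and start caspase-8 activation. BBC3, PMAIP1 and TNFRSF10B are known as genes that stress transcription factors, among them CHOP (DDIT3) and ATF4, can switch on, while BCL2L15 is a less studied member with a BH3 segment.

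The 250 bases before the annotated start are shown for 4 members: BBC3 and PMAIP1, whose signals differed most between the media, BAX, which was lower at late times in every arm, and BCL2L15, which moved the other way under the compound. They come from RefSeq with build GRCh38.p14, read on the strand of the gene, at chr19:47232668-47232917 (minus strand) for BBC3, chr18:59899746-59899995 (plus) for PMAIP1, chr19:48954625-48954874 (plus) for BAX and chr1:113887582-113887831 (minus) for BCL2L15. Capitals mark matches to the motifs named after the sequences.
BBC3: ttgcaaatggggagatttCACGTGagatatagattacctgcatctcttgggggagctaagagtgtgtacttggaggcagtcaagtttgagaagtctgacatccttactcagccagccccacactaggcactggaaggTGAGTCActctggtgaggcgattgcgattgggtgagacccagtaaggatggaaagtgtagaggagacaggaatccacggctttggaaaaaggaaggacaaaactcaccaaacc
PMAIP1: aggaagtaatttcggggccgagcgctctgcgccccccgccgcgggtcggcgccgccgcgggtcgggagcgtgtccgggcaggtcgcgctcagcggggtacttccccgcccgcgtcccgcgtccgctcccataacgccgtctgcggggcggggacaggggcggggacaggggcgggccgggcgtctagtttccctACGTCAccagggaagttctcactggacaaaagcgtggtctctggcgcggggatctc
BAX: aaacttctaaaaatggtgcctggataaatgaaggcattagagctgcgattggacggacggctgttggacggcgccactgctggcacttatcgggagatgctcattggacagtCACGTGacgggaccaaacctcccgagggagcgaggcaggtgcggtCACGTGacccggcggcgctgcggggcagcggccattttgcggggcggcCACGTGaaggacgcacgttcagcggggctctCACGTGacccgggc
BCL2L15: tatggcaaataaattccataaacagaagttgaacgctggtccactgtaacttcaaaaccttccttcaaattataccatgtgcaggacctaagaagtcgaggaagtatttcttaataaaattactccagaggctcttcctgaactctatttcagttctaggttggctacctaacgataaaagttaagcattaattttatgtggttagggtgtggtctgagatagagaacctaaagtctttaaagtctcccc

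These windows were searched on both strands for a composite ATF4-C/EBP element written TGATGNAAN, a short form of the cAMP response element, TGACGT, an AP-1 site TGANTCA and an E-box CACGTG. Of the 35116 promoter windows of the table, 3.13% held the composite element, 7.10% the short cAMP response element, 6.57% the AP-1 site and 6.34% the E-box. The BBC3 window held an E-box at -232 to -227 and an AP-1 site at -113 to -107 before the start. PMAIP1 held the short cAMP response element, read on the opposite strand as ACGTCA, at -56 to -51. BAX held 4 E-boxes, beginning at -138, -93, -45 and -14. BCL2L15 held none of the 4 motifs, nor did the 3 windows of BCL2L11 and BCL2L1. The composite element was thus in none of the 7 windows of these 6 members. MCL1 and BIK had no window, and those of TNFRSF10A and TNFRSF10B were not read. The matches are descriptions of the letters in these windows.

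The deposited signals ran between 3.36 and 14.58 on the log2 scale, and the medians of the 50 arrays lay between 5.40 and 5.54. Arrays within groups correlated at 0.995 to 0.997, and no pair held identical values. All 8 markers of A549 epithelial cells that were looked at had group means of 9.22 to 14.42. CDKN2A, a gene deleted in this line, had 4.99 to 5.78, the 5 fibroblast markers 3.83 to 5.11 and the 3 endothelial markers 4.11 to 5.18. Of the 4 leukocyte markers, PTPRC and CD3E lay at or under 4.75, CD14 at 5.25 to 6.82 and CD68, which epithelial lines also express, at 7.16 to 7.76. In such bulk samples, fewer cells of a kind and less RNA per cell cannot be told apart.

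Across the members, most compound effects that passed the test were at 6 and 24 h without serine. At 6 h without serine BBC3, PMAIP1 and TNFRSF10B were higher with compound 16 than with DMSO and none of the 10 was lower, in a limma fit with Benjamini-Hochberg adjustment over all genes at a threshold of 0.05 (2.72% of all genes called, 1.49% higher and 1.23% lower). The median difference of the 10 was 0.12 on the log2 scale, beside -0.01 over all genes. At 24 h without serine BBC3 and TNFRSF10B were higher and BCL2L15 was lower, against 7.08% of all genes called (2.97% higher and 4.1% lower), with a median of 0.08 over the members and 0.00 over all genes. With serine the count was 0 of 10 at 0, 1.5 and 6 h, where limma called 0% of all genes. At an unadjusted p under 0.05 there was 1 member with serine at 0 h (BCL2L11), and 0 at 1.5 h and at 6 h. With serine at 24 h only BBC3 passed, against 1.37% of all genes (0.752% higher and 0.62% lower). Without serine the limma count was 0 at 0 h, against 0% of all genes, and 0 at 1.5 h, against 0.0823% (0.0768% higher and 0.00549% lower). At an unadjusted p under 0.05 there were 0 members at 0 h and 3 at 1.5 h (BBC3, PMAIP1 and BCL2L1).

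**Figure D1:**
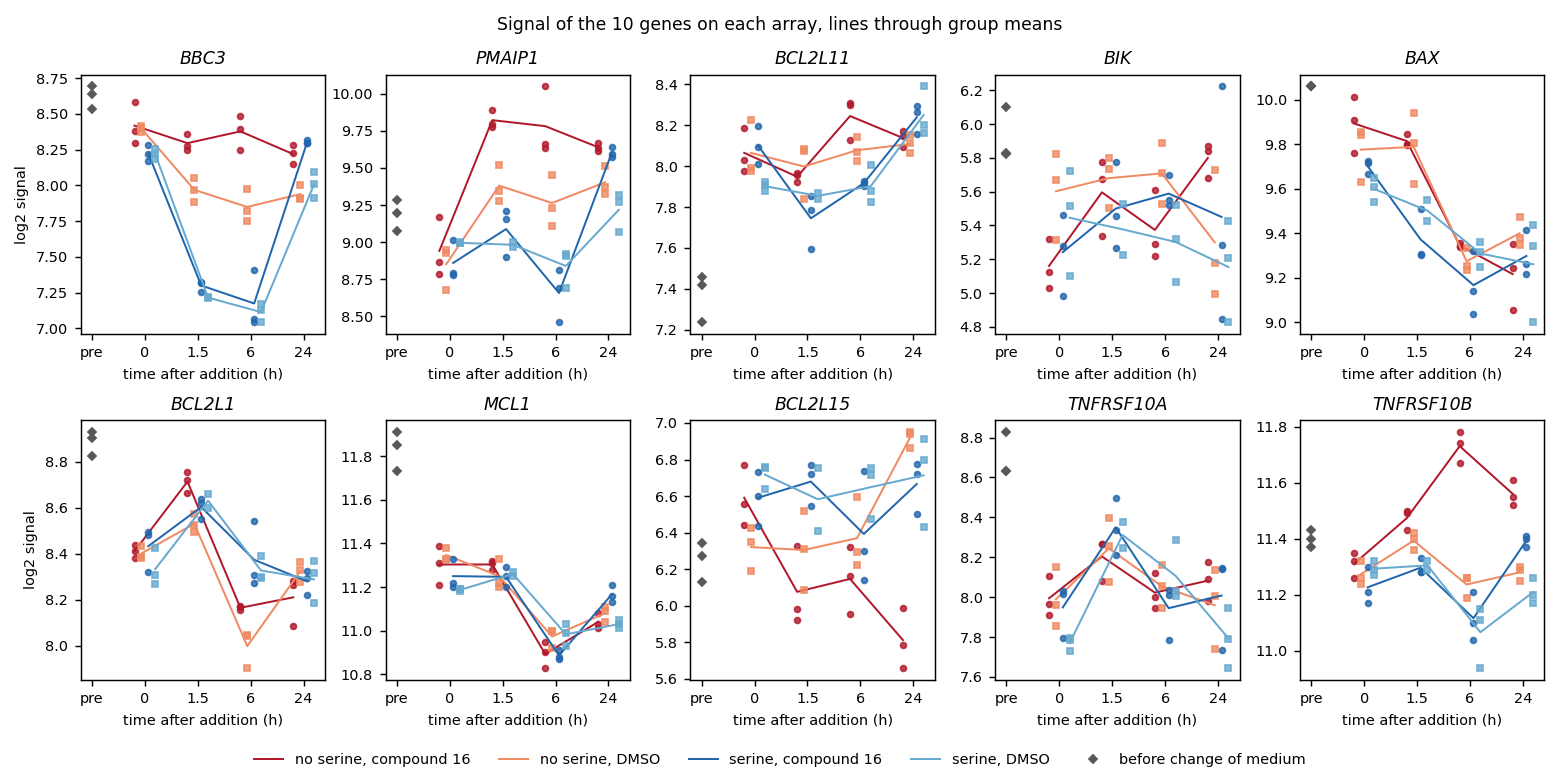
Log2 signal of each of the 10 genes (vertical axis) on every array, by time after addition in hours (horizontal axis, "pre" is before the change of medium); points are arrays, lines join the means of the 4 arms. BBC3 with serine dips to group means of 7.11 to 7.30 at 1.5 and 6 h, while the group means under compound 16 without serine lie between 8.22 and 8.42.

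The test of whether the compound effect differed between the media was the compound effect without serine minus that with serine. At 6 h this difference passed for BBC3, PMAIP1 and TNFRSF10B, 3 of 10 members, all higher, against 0.9% of all genes (0.62% higher and 0.28% lower). At 24 h it passed for BCL2L15 alone, which was lower, against 1.28% of all genes (0.384% higher and 0.9% lower). At 0 h limma called 0 members and 0% of all genes, and 0 members had an unadjusted p under 0.05. At 1.5 h limma called 0 members and 0.0165% of all genes, with BBC3, PMAIP1 and BCL2L1 at an unadjusted p under 0.05.

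BBC3, which encodes the BH3-only protein PUMA, had the widest range of the 10, 1.51 between its highest and lowest group mean, or 2.85-fold. Without serine at 6 h it had signals of 8.25, 8.40 and 8.49 with compound 16 and 7.82, 7.75 and 7.97 with DMSO. With serine at 6 h it had 7.07, 7.41 and 7.05 with compound 16 and 7.17, 7.13 and 7.04 with DMSO. All 3 compound 16 arrays without serine were above all DMSO arrays without serine, which in turn were above all 6 arrays with serine, where compound 16 and DMSO overlapped.

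Without serine the BBC3 mean was 8.42 at 0 h and 8.38 at 6 h with compound 16, and 8.40 and 7.85 with DMSO. At 6 h without serine BBC3 was thus 0.53 higher with compound 16 than with DMSO (SE 0.08, 1.44-fold, adjusted p = 8.86e-06). With serine the same difference was 0.06 (95% interval -0.09 to 0.21, adjusted p = 0.956). The effects differed by 0.47 (SE 0.11, adjusted p = 0.0174). That last call was lost when array 57 or 59 (compound 16 with serine), 60 (DMSO with serine), 65 (compound 16 without serine) or 67 (DMSO without serine) was left out, with differences of 0.41 to 0.44, and averaged over both BBC3 probe sets it was 0.37 (adjusted p = 0.467). In fits of only the arrays compared, neither the effect without serine at 6 h (adjusted p = 0.0676) nor the difference between media (adjusted p = 0.383) passed, and the difference between media missed with a trended robust prior too (adjusted p = 0.0552). At 24 h the compound effect was 0.28 without serine (adjusted p = 0.0154) and 0.30 with serine (adjusted p = 0.0349), and the difference between them was -0.02 (95% interval -0.23 to 0.20). Both 24 h calls were lost on leaving out single arrays: any of 4 of the 6 without serine (compound 16 arrays 99 and 101 and 2 of the DMSO arrays), where the difference was then 0.25 to 0.28, and array 93, 94, 95, 97 or 98 with serine, where it was 0.25 to 0.30. Averaged over its probe sets, the BBC3 effect without serine at 24 h was 0.17 and did not pass. In a fit of only the arrays compared that 24 h effect did not pass either (adjusted p = 0.124).

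In DMSO the BBC3 mean without serine fell from 8.40 at 0 h to 7.97 at 1.5 h and 7.85 at 6 h. With serine it fell further, from 8.22 to 7.21 and 7.11. BBC3 in DMSO was thereby higher without than with serine by 0.75 at 1.5 h (SE 0.08, adjusted p = 5.94e-07) and by 0.74 at 6 h (SE 0.08, adjusted p = 2.45e-08). Under compound 16 the same comparison gave 1.00 at 1.5 h (1.99-fold, adjusted p = 1.25e-11) and 1.20 at 6 h (2.30-fold, adjusted p = 4.5e-15). Averaged over both BBC3 probe sets, the DMSO differences were 0.46 and 0.42 and those under compound 16 0.65 and 0.78, and all passed. In a fit of only the arrays compared, the DMSO difference at 1.5 h did not pass (adjusted p = 0.0826). At 24 h no difference between media passed, with -0.08 under compound 16 (95% interval -0.24 to 0.07) and -0.07 in DMSO (95% interval -0.22 to 0.09). The groups that stood low were the 4 with serine at 1.5 and 6 h, whose means of 7.11 to 7.30 lay 0.55 under the lowest of the other 13. Of the 16 neighbouring pairs in the order of the 17 group means, 13 had overlapping arrays, so most single steps in that order are within the spread.

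**Figure D2:**
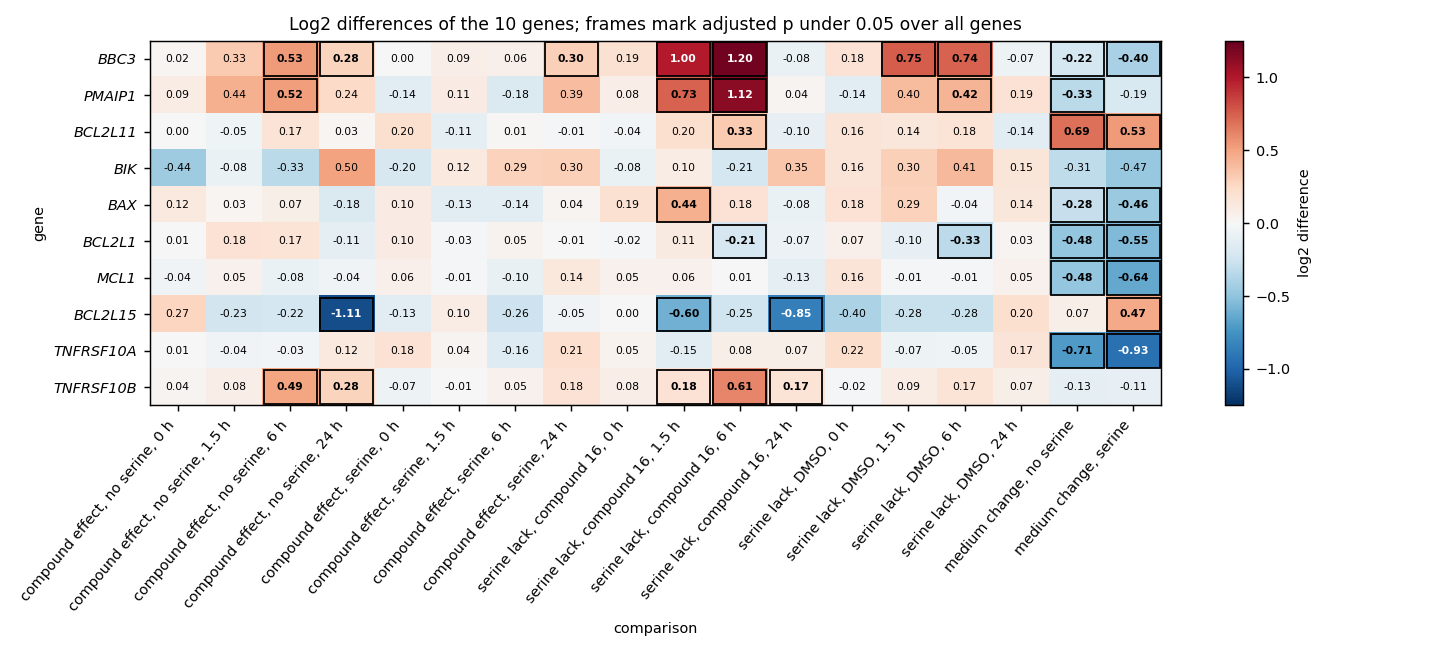
Log2 differences of the 10 genes (rows) in 18 comparisons (columns): compound 16 minus DMSO in each medium and time, no serine minus serine in each arm and time, and 0 h DMSO minus cells before the change of medium. Colour and printed value give the difference and black frames mark an adjusted p under 0.05; The largest values are 1.20 for BBC3 (lack of serine under compound 16 at 6 h) and -1.11 for BCL2L15 (compound effect without serine at 24 h).

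PMAIP1, which encodes NOXA, a BH3-only protein that mainly opposes MCL1, also passed for the compound without serine at 6 h and for the difference between media. Its signals without serine at 6 h were 9.66, 9.63 and 10.05 with compound 16 and 9.46, 9.11 and 9.23 with DMSO. With serine at 6 h they were 8.69, 8.46 and 8.82 with compound 16 and 8.69, 8.90 and 8.92 with DMSO. The compound 16 arrays without serine were above every other array at 6 h, and the compound 16 arrays with serine overlapped their DMSO controls from below.

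The compound raised PMAIP1 without serine at 6 h by 0.52 (SE 0.11, 1.43-fold, adjusted p = 0.00319), and with serine the difference was -0.18 (95% interval -0.40 to 0.04, adjusted p = 0.861). The effects differed by 0.70 (SE 0.15, adjusted p = 0.012). Array 65, the highest compound 16 array without serine, decided the first call: without it the PMAIP1 effect was 0.38 (adjusted p = 0.0716). Without array 65, 67 or 58, the difference between media was 0.57, 0.62 or 0.60 and did not pass. In fits of only the arrays compared, neither PMAIP1 call was kept (adjusted p = 0.207 and 0.252). The other PMAIP1 probe set, with p adjusted over all probe sets, passed for both, with a compound effect of 0.62 without serine (adjusted p = 1.13e-05) and a difference between media of 0.63 (adjusted p = 0.00538).

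PMAIP1 was apart early as well. At 1.5 h without serine it had 9.89, 9.78 and 9.80 with compound 16, against 9.28, 9.52 and 9.35 with DMSO. These arrays did not overlap, yet the difference of 0.44 did not pass (adjusted p = 0.22). Lack of serine raised PMAIP1 under compound 16 by 0.73 at 1.5 h (adjusted p = 2.63e-05) and by 1.12 at 6 h (2.18-fold, adjusted p = 5.39e-10). In DMSO lack of serine gave 0.40 at 1.5 h, which did not pass (adjusted p = 0.0886), and raised it by 0.42 at 6 h (adjusted p = 0.0202), a call lost without array 60 or 66, at 0.35 or 0.33, and with only the arrays compared (adjusted p = 0.219).

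At 24 h with serine PMAIP1 had 9.59, 9.64 and 9.58 with compound 16, against 9.27, 9.32 and 9.07 with DMSO. The arrays did not overlap and the difference of 0.39 had an adjusted p of 0.0693 (95% interval 0.16 to 0.61), while the other probe set gave 0.45 (adjusted p = 0.00313). Without serine at 24 h the difference was 0.24 (adjusted p = 0.226), and the effects in the media differed by -0.15 (95% interval -0.46 to 0.16). The 4 highest group means of PMAIP1, 9.60 to 9.82, were those of compound 16 without serine at 1.5, 6 and 24 h and of compound 16 with serine at 24 h.

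BCL2L11, the gene of the broad-acting BH3-only protein BIM, moved little with the compound. Its compound effect lay between -0.11 and 0.20 in the 8 comparisons and passed in none. Lack of serine under compound 16 at 6 h was the exception among the comparisons of media: it had 8.13, 8.31 and 8.30 without serine, against 7.90, 7.93 and 7.92 with serine. The arrays did not overlap and the difference was 0.33 (SE 0.08, adjusted p = 0.00286). Averaged over the 14 BCL2L11 probe sets it was 0.058 (adjusted p = 0.549), and with only the arrays compared it did not pass (adjusted p = 0.064). Its lowest group was the cells before the change of medium, at a mean of 7.37, which lay 0.37 below the next. The 14 probe sets of BCL2L11 include 10 with mean signals of 5.20 or lower, and correlations with the representative probe set over the 17 group means ran from -0.55 to 0.84.

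BIK, a BH3-only protein of the endoplasmic reticulum, had the dimmest representative signal and the largest spread. The SD within groups was 0.28, beside a range of 0.76 between group means, and all 16 neighbouring pairs in the order of groups overlapped. The BIK group means, 5.15 to 5.92, lay close to those of CDKN2A, the gene deleted in this line, at 4.99 to 5.78. No compound effect or effect of serine on BIK passed. The compound 16 arrays with serine at 24 h alone ran from 4.84 to 6.22.

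BAX, the pore former, showed no compound effect that passed, with differences between -0.18 and 0.12. Under compound 16 at 1.5 h BAX had 9.85, 9.80 and 9.80 without serine, against 9.30, 9.31 and 9.51 with serine. Under compound 16 the means at 0 h and 1.5 h were 9.89 and 9.81 without serine, and 9.70 and 9.37 with serine. At 0 h the media differed at an unadjusted p under 0.05 in limma but did not pass. At 1.5 h the groups did not overlap and BAX was 0.44 higher without than with serine (SE 0.09, adjusted p = 0.00186). Averaged over both BAX probe sets the difference was 0.24 and did not pass (adjusted p = 0.0694), nor did it with only the arrays compared (adjusted p = 0.0685). In DMSO at 1.5 h the difference was 0.29 (adjusted p = 0.161), and at 6 h under compound 16 it was 0.18 (adjusted p = 0.228). BAX was lower at 24 h than at 0 h in all 4 arms.

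The protective genes BCL2L1 and MCL1 showed no compound effect that passed. BCL2L1, which encodes BCL-XL, had 8.17, 8.17 and 8.15 with compound 16 and 8.05, 8.05 and 7.91 with DMSO at 6 h without serine, and 8.31, 8.54 and 8.27 with compound 16 and 8.30, 8.30 and 8.39 with DMSO at 6 h with serine. The 6 arrays without serine were below the 6 with serine. Lack of serine lowered BCL2L1 at 6 h in DMSO by a difference of -0.33 (SE 0.06, adjusted p = 0.00119) and under compound 16 by one of -0.21 (adjusted p = 0.0236). The compound 16 call was lost without any of arrays 58, 63, 64 and 65, and without array 58 the difference was -0.13. The other 2 BCL2L1 probe sets did not show it, at 0.24 and 0.07 under compound 16 and -0.07 and -0.09 in DMSO, none of which passed. Averaged over all 3 probe sets the DMSO difference was -0.16 (adjusted p = 0.247), and with only the arrays compared neither call was kept (adjusted p = 0.194 in DMSO and 0.255 under compound 16). With a trended robust prior the compound 16 call was lost too (adjusted p = 0.0774).

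MCL1, a short-lived protective protein and the main partner of NOXA, also had no effect of serine that passed. Its compound effects lay between -0.10 and 0.14, and at 6 h without serine it had 10.90, 10.95 and 10.83 with compound 16, against 11.00, 11.00 and 10.92 with DMSO. The groups overlapped at -0.08 (95% interval -0.18 to 0.02). The difference between media at 6 h was 0.02 (95% interval -0.13 to 0.16).

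BCL2L15 was the 1 member that the compound lowered. Without serine at 24 h it had 5.79, 5.99 and 5.66 with compound 16 and 6.95, 6.94 and 6.87 with DMSO. With serine at 24 h it had 6.78, 6.72 and 6.50 with compound 16 and 6.91, 6.80 and 6.43 with DMSO. The compound 16 arrays without serine were below every other array at 24 h, and the groups with serine overlapped. Those compound 16 signals without serine lay close to the group means of CDKN2A, the gene deleted in this line, at 4.99 to 5.78.

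The compound effect on BCL2L15 at 24 h was -1.11 without serine (SE 0.14, 95% interval -1.39 to -0.82, adjusted p = 2.83e-07) and -0.05 with serine (95% interval -0.33 to 0.24, adjusted p = 0.941). The effects differed by -1.06 (SE 0.20, adjusted p = 0.00155), and leaving out single arrays kept this call, with differences of -1.16 to -0.92. Averaged over the 5 BCL2L15 probe sets the effect without serine was -0.67 (adjusted p = 3.2e-06) and the difference between media -0.59 (adjusted p = 0.0146). In DMSO without serine BCL2L15 was 0.60 higher at 24 h than at 0 h (adjusted p = 0.00165; averaged over its probe sets 0.099, adjusted p = 0.509), while under compound 16 without serine the 24 h minus 0 h difference was -0.78 (adjusted p = 5.68e-05). Lack of serine under compound 16 lowered BCL2L15 with a difference of -0.60 at 1.5 h (adjusted p = 0.00877), lost without array 46, 51 or 52 at -0.53 to -0.56 and with only the arrays compared (adjusted p = 0.092), and of -0.85 at 24 h (adjusted p = 8.03e-05). Of its 4 other probe sets, all with a mean signal of 5.83 or lower, the compound effect without serine at 24 h was between -0.77 and -0.37 and passed for 1 (adjusted p = 0.0206).

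**Figure D3:**
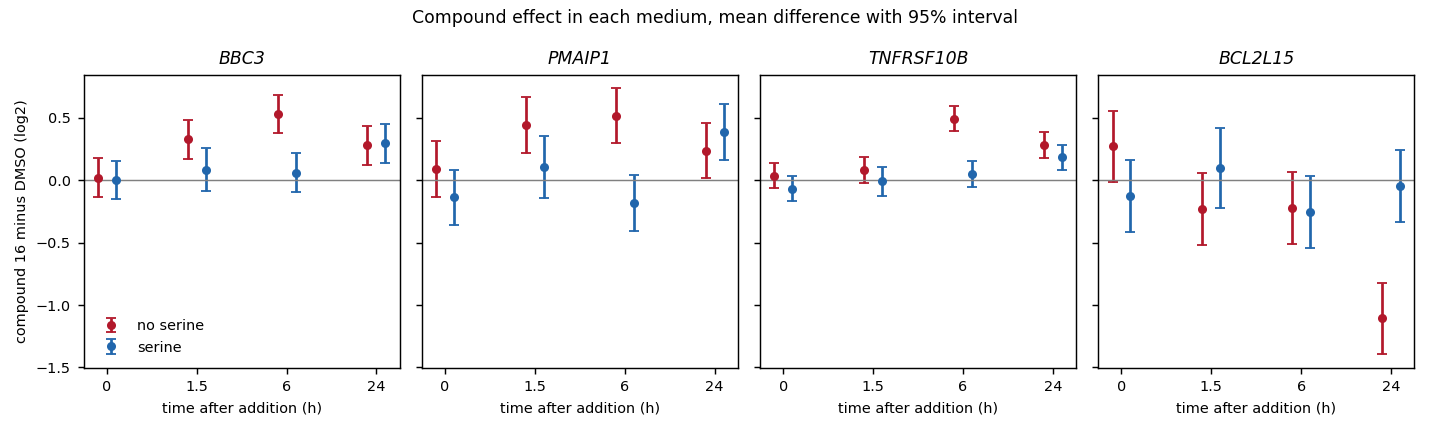
Compound 16 minus DMSO on the log2 scale (vertical axis) by time in hours for the 4 genes whose compound effect differed between media at some time; points are mean differences and bars 95% intervals, in medium without serine (red) and with serine (blue). At 6 h the red points of BBC3, PMAIP1 and TNFRSF10B stand at 0.53, 0.52 and 0.49, and at 24 h that of BCL2L15 at -1.11.

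TNFRSF10B, the DR5 gene, was raised by the compound without serine. Without serine at 6 h it had 11.74, 11.78 and 11.67 with compound 16 and 11.26, 11.19 and 11.26 with DMSO. With serine at 6 h it had 11.21, 11.10 and 11.04 with compound 16 and 11.15, 11.11 and 10.94 with DMSO. Compound 16 without serine stood above all other arrays of the gene at 6 h, and the groups with serine overlapped.

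The compound raised TNFRSF10B without serine at 6 h by 0.49 (SE 0.05, 1.41-fold, adjusted p = 6.54e-09), against 0.05 with serine (95% interval -0.05 to 0.15, adjusted p = 0.937). The effects differed by 0.44 (SE 0.07, adjusted p = 1.92e-04), and leaving out single arrays kept the call, with 0.40 to 0.51, while a fit of only the arrays compared lost it (adjusted p = 0.175). At 24 h the compound raised it without serine by 0.28 (adjusted p = 1.38e-04), an effect that averaged over its probe sets was 0.16 and did not pass, nor did it with only the arrays compared (adjusted p = 0.0971), and with serine the difference of 0.18 did not pass (adjusted p = 0.0579), although the arrays did not overlap. The 24 h effects differed by 0.10 (95% interval -0.05 to 0.24). Lack of serine under compound 16 raised TNFRSF10B by 0.61 at 6 h (adjusted p = 7.92e-12), by 0.18 at 1.5 h (adjusted p = 0.0414) and by 0.17 at 24 h (adjusted p = 0.0493), and the calls at 1.5 h and 24 h were lost without any 1 of their 6 arrays, and averaged over its probe sets they were 0.058 and 0.087. The 2 other probe sets of TNFRSF10B gave compound effects of 0.56 (adjusted p = 0.0248) and 0.37 (adjusted p = 0.30) without serine at 6 h.

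TNFRSF10A, the DR4 gene, had no effect of the compound or of serine that passed. Its compound effects lay between -0.16 and 0.21. Without serine at 6 h it had 7.999, 8.12 and 7.95 with compound 16, against 8.06, 7.94 and 8.16 with DMSO, which overlap.

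Taking the media comparison by count, 4 members were higher and 1 lower without than with serine under compound 16 at 6 h, against 11.8% of all genes called (6.23% higher and 5.57% lower). At 1.5 h 4 were higher and 1 lower, against 3.34% (1.79% higher and 1.54% lower). At 24 h 1 was higher and 1 lower, against 4.41% (1.85% higher and 2.55% lower). At 0 h limma called 0, against 4.12% (2.37% up and 1.75% down), with BBC3 and BAX at an unadjusted p under 0.05. In DMSO 1 member was higher without than with serine at 1.5 h, against 1.98% (1.05% higher and 0.927% lower). At 6 h 2 were higher and 1 lower, against 3.18% (1.75% higher and 1.43% lower). At 0 h and 24 h limma called 0 members in DMSO, against 5.9% of all genes at 0 h (2.99% up and 2.91% down) and 0.159% at 24 h (0.0878% up and 0.0713% down), with 4 members and 0 members at an unadjusted p under 0.05. The difference between the 3′ and the 5′ control probe sets of ACTB, a sign of RNA quality, averaged at 6 h 1.20 with compound 16 and 1.32 with DMSO without serine, and 1.01 with compound 16 and 1.19 with DMSO with serine. At 1.5 h it averaged 1.13 with compound 16 and 1.21 with DMSO without serine. With serine at 1.5 h it averaged 1.03 with compound 16 and 1.05 with DMSO. Before the change of medium it was 1.37, against 1.14 without serine and 1.22 with serine in DMSO at 0 h. Its part in the results at 1.5 h, at 6 h and for the change of medium was not tested.

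By count the change of medium moved more members than the compound did, and it moved more of all genes too. For the compound without serine 2.72% of all genes were called at 6 h and 7.08% at 24 h. At 0 h in DMSO without serine 1 member was higher and 6 were lower than before the change, against 28.6% of all genes called (16% higher and 12.6% lower). With serine 2 were higher and 5 lower, against 21.8% (12.3% higher and 9.48% lower). These comparisons share the 3 arrays taken before the change, and the new medium and the 24 h spent in it cannot be told apart. The median difference of the members was -0.30 without serine and -0.43 with serine, beside 0.01 over all genes in each.

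TNFRSF10A had 8.15, 7.86 and 7.96 without serine and 7.73, 7.79 and 7.79 with serine, against 8.63, 8.63 and 8.83 before the change. All 6 arrays after the change were lower, by differences of -0.71 (adjusted p = 3.69e-06) and -0.93 (adjusted p = 3.38e-08). MCL1 had 11.33, 11.38 and 11.33 without serine and 11.19, 11.18 and 11.19 with serine, against 11.73, 11.85 and 11.91 before. Its differences were -0.48 (adjusted p = 8.92e-10) and -0.64 (adjusted p = 1.02e-12), and those of BCL2L1 -0.48 (adjusted p = 1.12e-07) and -0.55 (adjusted p = 1.18e-08).

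BAX was lower by -0.28 without serine (adjusted p = 0.0137), a call lost without array 21 at -0.21, and by -0.46 with serine (adjusted p = 1.42e-04), against 10.06 on each of the 3 arrays before the change. BBC3 was lower by -0.22 without serine (adjusted p = 0.0227), a call lost without array 2, 3 or 19 at -0.19 to -0.22 though -0.48 averaged over its probe sets (adjusted p = 0.00123), and by -0.40 with serine (adjusted p = 9.95e-05). BCL2L11 went the other way, with 7.98, 8.22 and 7.99 without serine and 7.92, 7.91 and 7.88 with serine, against 7.46, 7.24 and 7.42 before. It was 0.69 higher without serine (adjusted p = 4.52e-09) and 0.53 higher with serine (adjusted p = 1.66e-06). Averaged over its 14 probe sets the differences were 0.15 and 0.16 (adjusted p = 0.0131 and 0.0126). BCL2L15 was 0.47 higher with serine (adjusted p = 0.0132), lost without array 3 at 0.41, and 0.07 without serine (adjusted p = 0.767). PMAIP1 was lower by -0.33 without serine (adjusted p = 0.018), lost without array 1 or 19 at -0.28 or -0.25, and its difference with serine was -0.19 (adjusted p = 0.255). With only the arrays compared, the calls without serine of BAX, BBC3 and PMAIP1 were lost (adjusted p = 0.055, 0.0793 and 0.0602). The BBC3 call without serine was also lost with a trended robust prior (adjusted p = 0.0604).

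Over time within an arm, BBC3 with serine took the widest path. In DMSO with serine the group means of BBC3 were 8.22 at 0 h, 7.21 at 1.5 h, 7.11 at 6 h and 8.01 at 24 h, and under compound 16 with serine 8.22, 7.30, 7.17 and 8.30. Under compound 16 without serine they were 8.42, 8.30, 8.38 and 8.22, and in DMSO without serine 8.40, 7.97, 7.85 and 7.94. The 6 h minus 0 h difference was -1.05 under compound 16 with serine (adjusted p = 2.6e-12), -1.11 in DMSO with serine (adjusted p = 7.28e-13), -0.55 in DMSO without serine (adjusted p = 1.72e-06) and -0.04 under compound 16 without serine, which did not pass. The 24 h minus 6 h difference with serine was 1.13 under compound 16 (adjusted p = 4.28e-14) and 0.89 in DMSO (adjusted p = 5.12e-11), or 0.64 and 0.42 averaged over both BBC3 probe sets, which also passed, as did the 6 h minus 0 h difference under compound 16 with serine at -0.655. Of all genes, 19.9%, 22.4%, 14.5% and 14.3% were called at 6 h against 0 h under compound 16 and DMSO without serine and under compound 16 and DMSO with serine, and 20.1% and 15.4% at 24 h against 6 h under compound 16 and DMSO with serine. These comparisons with 6 h were added after the group means had been seen.

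At 24 h compared with 0 h, 3 members were higher and 5 lower under compound 16 without serine (27.3% of all genes called, 7.68% higher and 19.6% lower) and 2 higher and 3 lower in DMSO without serine (25.5%, of which 7.97% higher and 17.5% lower). Under compound 16 with serine 2 were higher and 1 lower (21.4%, of which 6.59% higher and 14.8% lower), and in DMSO with serine 1 was higher and 3 lower (20.7%, of which 5.84% higher and 14.8% lower). Under compound 16 without serine BBC3 and BCL2L1 were each lower by -0.2. Of 13 alternatives, array omissions included, 9 lost the BBC3 call and 6 the BCL2L1 call. The BBC3 call in DMSO with serine, at -0.215, was lost in 9 of 13. TNFRSF10B was 0.25 higher under compound 16 without serine, but -0.049 averaged over its probe sets. PMAIP1 was higher in 3 arms, by 0.70 under compound 16 without serine, 0.55 in DMSO without serine and 0.74 under compound 16 with serine, with adjusted p-values of 6.23e-06, 2.4e-04 and 3.15e-06. BAX was lower by -0.68, -0.38, -0.40 and -0.34 in the 4 arms in that order, and the DMSO call with serine was lost without array 98, at -0.21, with arrays centred on their medians (-0.24, adjusted p = 0.051) and with only the arrays compared (adjusted p = 0.116), and the DMSO value without serine was -0.60 averaged over both BAX probe sets. MCL1 was lower in 3 arms, by -0.26 under compound 16 without serine, -0.27 in DMSO without serine and -0.16 in DMSO with serine, the last lost without array 13, 15, 97 or 98 and, at -0.058, with arrays centred on their medians. Averaged over the 6 MCL1 probe sets none of the 3 passed, at -0.029, -0.13 and -0.11 (adjusted p = 0.801, 0.153 and 0.265). BCL2L11 was 0.35 higher in DMSO with serine (adjusted p = 0.0012), or 0.11 averaged over its probe sets (adjusted p = 0.105), and BIK 0.64 higher under compound 16 without serine (adjusted p = 0.0279), a call lost without array 16, 17, 99 or 100 at 0.58 to 0.62 and, at 0.11, averaged over its probe sets (adjusted p = 0.523). The array numbers in the titles run in blocks with time, so time and any step that followed that order cannot be told apart.

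**Figure D4:**
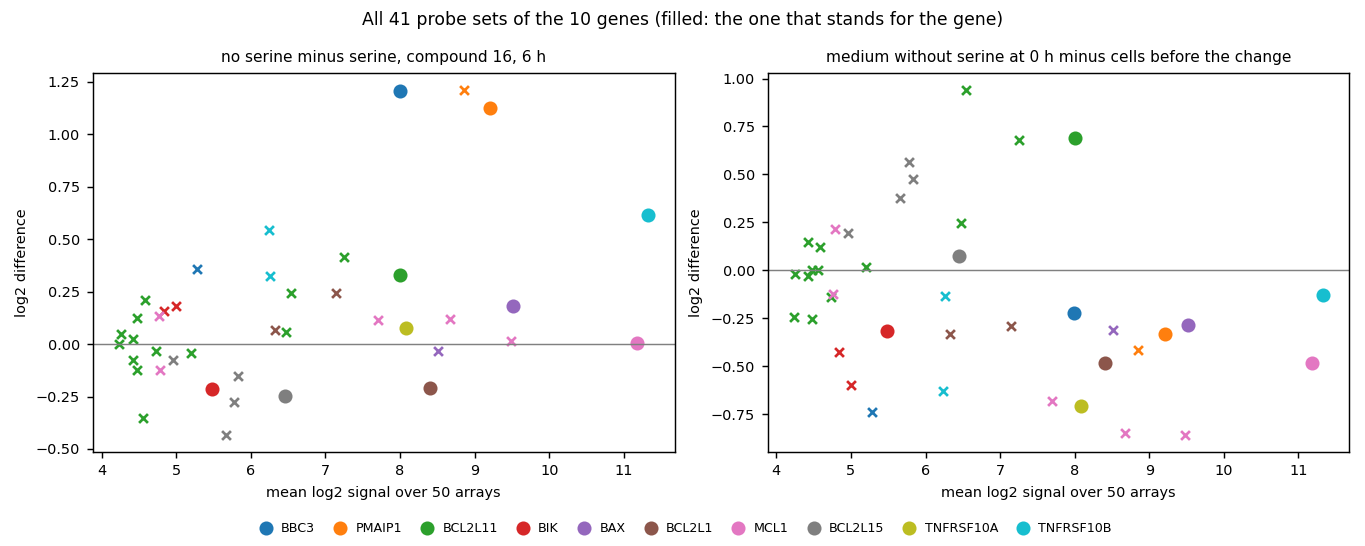
All 41 probe sets of the 10 genes by mean log2 signal over the 50 arrays (horizontal axis) and log2 difference (vertical axis), for no serine minus serine under compound 16 at 6 h (left) and for 0 h DMSO without serine minus cells before the change of medium (right); filled points stand for the gene and crosses are its other probe sets. The PMAIP1 probe sets lie at 1.12 and 1.21 on the left, and the 4 brighter MCL1 probe sets lie between -0.86 and -0.48 on the right.

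The representative probe sets of TNFRSF10B, BCL2L1 and BIK carry the suffix that the array maker gives to sets which may bind unrelated transcripts, and that of MCL1 the suffix for sets shared by several transcripts. The other BBC3 probe set had a mean signal of 5.28 and a correlation of 0.67 with the representative one over the 17 group means. It gave 0.36 for lack of serine under compound 16 at 6 h (adjusted p = 0.358), against 1.20 for the representative set. For PMAIP1 that correlation was 0.94 and for BAX 0.85. Of the 5 other MCL1 probe sets, 3 correlated at 0.64 to 0.93 and were lower after the change of medium by -0.86 to -0.68, and the 2 with mean signals of 4.78 and 4.76 correlated at 0.00 and 0.08.

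Other genes of the pathways were looked at in 4 lists. Of 13 further BCL2 family genes, 11 measured death receptor pathway genes and 12 measured caspase, apoptosome and inhibitor genes, limma called 0 in each list for the compound without serine at 6 h, where 2.72% of all genes were called, and 6, 2 and 0 of them had an unadjusted p under 0.05. Their median differences were -0.11, -0.01 and 0.07. Of 10 measured transcription factors known to act on such genes, 4 were higher at 6 h, against 1.49% of all genes, led by DDIT3, the gene of CHOP, at 1.91, ATF3 at 1.20 and CEBPB at 0.84, with ATF4 at 0.27 (adjusted p = 9.22e-04). DDIT3 had a mean signal of 8.46 ± 0.09 with compound 16 and 6.55 ± 0.13 with DMSO at 6 h without serine (SD, n = 3 each), and 6.23 ± 0.29 with compound 16 and 6.14 ± 0.21 with DMSO at 6 h with serine. Its compound effects differed between the media at 6 h by 1.82 (limma, adjusted p = 7.32e-05).

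At 24 h without serine BCL2L12 was lower by -0.37 (adjusted p = 6.81e-05), TNFRSF10D, a decoy receptor for TRAIL, was 0.56 higher (adjusted p = 4.2e-05), and BIRC5, the gene of survivin, and CASP9, the initiator caspase of the apoptosome, were lower by -0.64 and -0.31 (adjusted p = 3.57e-11 and 0.0367). They were the genes called among 13 further BCL2 family genes (1), 11 death receptor genes (1) and 12 caspase, apoptosome and inhibitor genes (2). Of all genes, 7.08% were called. The difference between media at 24 h passed for TNFRSF10D at 0.65 (adjusted p = 0.00362) and for BIRC5 at -0.57 (adjusted p = 2.24e-05), against 1.28% of all genes. Among the transcription factors 6 of 10 were higher without serine at 24 h, against 2.97% of all genes, with DDIT3 at 1.26, ATF4 at 0.74 and ATF5 at 0.71, and 2 of 10 with serine, against 0.752% of all genes, DDIT3 at 1.05 and ATF4 at 0.48.

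**Figure D5:**
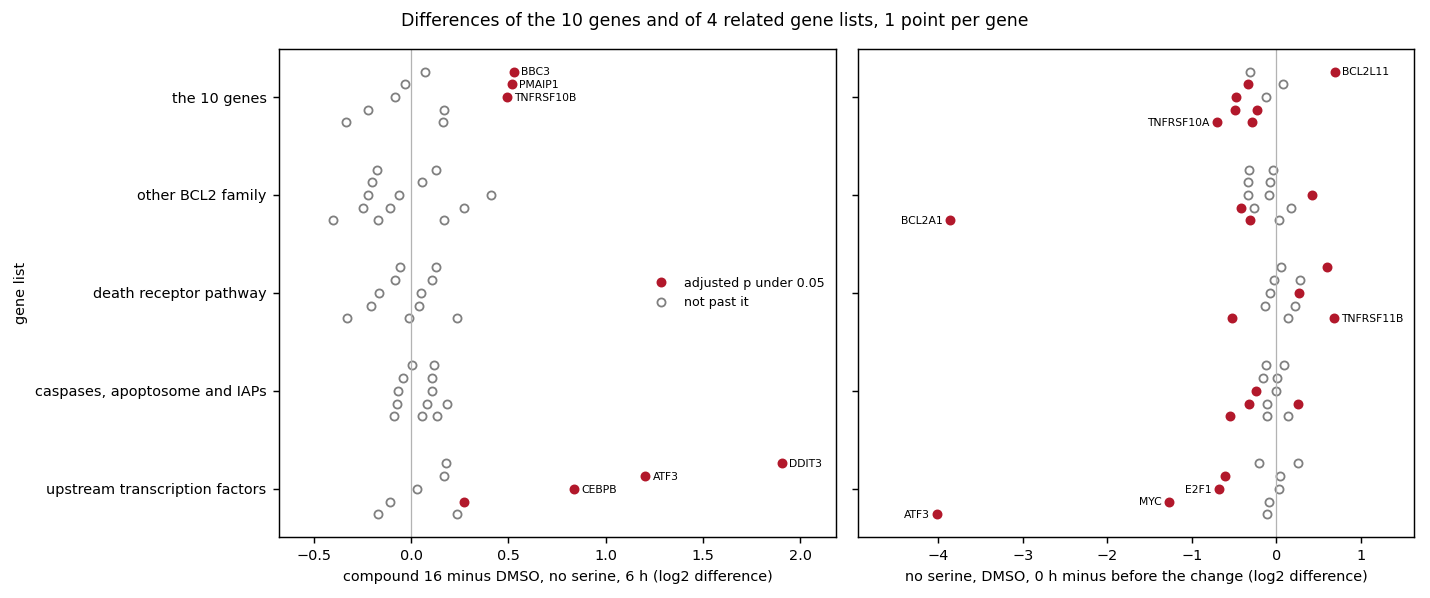
Log2 differences (horizontal axis) of the 10 genes and of 4 related gene lists (rows), 1 point per gene, for compound 16 minus DMSO without serine at 6 h (left) and 0 h DMSO without serine minus cells before the change of medium (right); filled points have an adjusted p under 0.05. On the left, the called genes are BBC3, PMAIP1 and TNFRSF10B among the members and 4 transcription factors, and on the right BCL2A1 and ATF3 stand farthest out, at -3.87 and -4.01.

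Over the 17 group means, PMAIP1 and TNFRSF10B correlated at 0.81, BAX and MCL1 at 0.86, BCL2L1 and MCL1 at 0.81, and BCL2L11 with TNFRSF10A at -0.78. Among 10935 brighter genes, the 3 most like BBC3 were GDF15, a stress-induced cytokine, at 0.93, POLR3E at 0.91 and WAC at 0.91. For PMAIP1 these were SIAH1 at 0.91, DDIT3 at 0.87 and KLF3 at 0.84, and for TNFRSF10B TRIB3 at 0.88, CEBPG at 0.88 and TSC22D3 at 0.87. MCL1 was most like NCOA7 at 0.96, BCL2L1 like PLAUR at 0.93, BAX like GANAB at 0.94, BCL2L11 like PON3 at 0.94, BCL2L15 like S100A4 at 0.90, TNFRSF10A like TIPARP at 0.90 and BIK like TMEM33 at 0.80. The points share arrays, controls and the steps of the change of medium, and these values describe the groups only.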

How the data were processed

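RNA of 50 A549 samples, extracted with Trizol per the labels' protocols, was measured on Affymetrix HG-U219 arrays. The authors deposited log2 probe set signals. RMA, which corrects background, normalizes arrays to each other and summarizes probes, and limma are named per the submitters' processing notes, with versions and settings not given in the sources used here. RMA compresses differences of dim probe sets, and normalization between arrays removes a shift shared by all genes. The deposited values hold 4 significant digits, and the number of arrays limits the precision. No column was without a sample (0).

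Of 49386 probe sets, 45311 carried 1 gene symbol in the platform annotation, 1269 several, 2713 none and 93 were controls. Through Entrez identifiers and synonyms, 43 symbols were updated. The probe set with the highest mean stood for each of 18227 genes. limma 3.58.1 in R 4.3.3 fitted all 17 groups together (33 residual and 3.7 prior degrees of freedom), with Benjamini-Hochberg adjustment over all genes per comparison and a threshold of 0.05. The procedure was tested on simulated data. Intervals are 95% intervals of that fit. The 26 planned comparisons were joined by 8 with 6 h, chosen after seeing the data, as was the look at each other probe set.

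Alternatives were quantile normalization, centring on array medians, a filter on dim genes at the 40th percentile of mean log2 signal, the mean of all probe sets of a gene, a trended robust prior, array weights, a fit of only the arrays compared, and leaving out each array. Members and gene lists were chosen with earlier results of these data known. Named besides the members are at most 3 called genes per list and comparison with the largest difference, DDIT3 and ATF4, and the genes of most similar pattern among those above the 40th percentile. CDKN2A and the other markers serve as a check of the cells. Array numbers are those of the sample titles. Promoter sequences are from RefSeq.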

Additional observations from a re-analysis of the deposited data

Results flagged for a closer look

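The compound effect differed between the media by the test of the difference itself for 4 members. At 6 h the effect without serine exceeded that with serine by 0.47 for BBC3 (adjusted p = 0.0174), by 0.70 for PMAIP1 (adjusted p = 0.012) and by 0.44 for TNFRSF10B (adjusted p = 1.92e-04), on the log2 scale in limma. In fits of only the arrays compared these 6 h calls were lost (adjusted p = 0.383, 0.252 and 0.175). The calls of BBC3 and PMAIP1 were also lost on leaving out single arrays. Averaged over its probe sets, the BBC3 difference was 0.37 (adjusted p = 0.467). At 24 h the difference for BCL2L15 was -1.06 (adjusted p = 0.00155). Groups here hold 2 or 3 arrays, too few to look for single arrays that stand apart.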

How the results depend on the processing

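No paired analysis was possible because the replicate numbers run through the series and the groups compared share none. Of the member counts, 149 values under other settings and 157 with an array left out stayed within 1.5 times the main count and 33 and 20 did not, and the cause was not tested beyond what a setting removes by construction. Quantile normalization gave 1 member for lack of serine in DMSO at 0 h (main 0) and 1 under compound 16 at 24 h (main 2). Centring on medians gave 0 for the compound with serine at 24 h (main 1), 1 for lack of serine in DMSO at 0 h and 2 for 24 h minus 0 h in DMSO with serine (main 4). Without dim genes there were 1 for the compound without serine at 1.5 h (main 0), 3 with serine at 24 h, 1 for lack of serine in DMSO at 0 h and 2 at 1.5 h (main 1). The mean of all probe sets gave 1 for the compound without serine at 24 h (main 3), 2 for lack of serine in DMSO at 1.5 h, 3, 3 and 1 for lack of serine under compound 16 at 1.5, 6 and 24 h (main 5, 5 and 2), and 4 for 24 h minus 0 h under compound 16 without serine (main 8). The trended robust prior gave 1 for the compound without serine at 1.5 h, 2 with serine at 24 h, and 1 and 2 for lack of serine in DMSO at 0 and 1.5 h. Array weights gave 1 for the compound without serine at 1.5 h and 2 for lack of serine in DMSO at 1.5 h. Fits of only the arrays compared, with fewer degrees of freedom, gave 1 and 1 for the compound without serine at 6 and 24 h (main 3 and 3), 0 with serine at 24 h, 0 for the difference between media at 6 h (main 3), 0 and 1 for lack of serine in DMSO at 1.5 and 6 h, 2, 3 and 1 under compound 16 at 1.5, 6 and 24 h, 4 for the change of medium without serine (main 7), and 4 and 1 for 24 h minus 0 h under compound 16 without serine and in DMSO with serine. TNFRSF10B was the member whose 6 h compound effect without serine kept its call there (adjusted p = 0.0328), at 0.47 to 0.52 over all settings.

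With single arrays left out, counts ran from 1 to 3 for the difference between media at 6 h, 0 to 1 for the compound with serine at 24 h, 3 to 4 and 1 to 2 for lack of serine under compound 16 at 1.5 and 24 h, and 5 to 8 and 1 to 4 for 24 h minus 0 h under compound 16 without serine and in DMSO with serine. Signs turned with the mean of all probe sets for BCL2L1 under compound 16 at 6 h (no serine minus serine 0.033, main -0.21), and for TNFRSF10B at 24 h minus 0 h under compound 16, -0.049 without serine and -0.113 with serine (main 0.25 and 0.17). Of single called values, 546 kept direction and call under other settings, 95 lost the call and 3 turned. With an array left out 482 kept both and 93 lost the call. BBC3 under the compound with serine at 24 h gave 0.27 to 0.30 and lost its call under quantile normalization, centring, the mean of probe sets, the trended prior and the arrays compared alone.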

Other observations

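Among the other BCL2 family, death receptor, caspase and inhibitor genes looked at, the widest difference was that of BCL2A1, a protective BCL2 family member known as a target of inflammatory signalling. It had 4.18 to 4.75 in DMSO without serine at 0 h and 4.22 to 4.72 in DMSO with serine at 0 h, against 8.23 to 8.46 before the change of medium, 3 arrays each. The differences were -3.87 (limma, adjusted p = 4.24e-20) and -3.86 (adjusted p = 4.93e-20). ATF3, a stress-induced transcription factor, was lower by -4.01 without serine and -3.41 with serine, and MYC by -1.27 and -1.45, in the same comparisons. BCL2L12 was lower by -0.42 and -0.33 (adjusted p = 2.14e-06 and 1.31e-04), and with serine BMF, a BH3-only gene, was lower by -0.62 (adjusted p = 0.0109). Of the 13 further BCL2 family genes, 1 was higher and 3 lower without serine, and 2 higher and 5 lower with serine. Of the 10 measured transcription factors, 0 were higher and 4 lower without serine, and 1 higher and 4 lower with serine. Of all genes, 28.6% were called without serine and 21.8% with serine.

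In the death receptor pathway the change of medium without serine left TNFRSF11B 0.68 and TNFSF10, the gene of TRAIL, 0.60 higher (adjusted p = 0.00381 and 0.00109), and CFLAR, the inhibitor of caspase-8 activation, lower by -0.53 (adjusted p = 6.49e-07). With serine CFLAR was lower by -0.34 (adjusted p = 8.24e-04) and TNFRSF11B 0.50 higher (adjusted p = 0.0472). Of 11 measured genes of this list, 3 were higher and 1 lower without serine, against 28.6% of all genes called. With serine 1 was higher and 1 lower, against 21.8%. BIRC5, the gene of survivin, was lower without serine than with serine at 6 h, by -0.47 under compound 16 (adjusted p = 5.06e-08) and by -0.42 in DMSO (adjusted p = 3.92e-06). Of the 12 measured genes of its list, 1 was higher and 2 lower under compound 16, against 11.8% of all genes called. In DMSO 0 were higher and 1 lower, against 3.18%.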
